A study of Cuscuta campestris with 8 samples.

Results

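Cuscuta campestris is a parasitic plant without expanded leaves that coils around a host and enters it through haustoria, organs that attach, invade and then connect to the vascular tissue of the host. A haustorium passes through several developmental steps, from a holdfast that adheres to the surface to files of invading cells that elongate and can differentiate into xylem and phloem. A tissue sample of a haustorial region therefore holds several cell types, and may hold several steps at once. Described here are the 150 genes whose expression differed most between replicate pools of that tissue, relative to their mean.

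RNA sequencing of polyadenylated RNA was carried out on 2 tissues of plants grown in vitro. The haustorial region (4 libraries) was the part of the stem carrying visibly healthy holdfasts, freed of shoots and lateral meristems. The shoot (4 libraries) comprised new shoots with their meristems, taken once the nearest 5 mm of connecting stem had been cut away. Both came from shoot tips of 3 cm, cut from plants kept on Beta vulgaris and attached to an artificial host filled with a liquid medium that contained an auxin (1-naphthaleneacetic acid, 3 mg per litre) and a cytokinin (6-benzylaminopurine, 1 mg per litre). Plants spent 2.5 days under far-red enriched light and then 12.5 days under full-spectrum light, and were collected at 15 days. Each library was a pool of 3 to 4 plants, and single plants were not measured. No repeat library of a pool is labelled. A difference between pools therefore cannot be told apart from one in RNA quality, library preparation or sequencing. No living host was present, and the haustoria touched only the artificial one.

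The 150 genes were taken from 45825 in the files, of which 32855 passed an expression filter. Expression is given in CPM, counts per 1000000 counts with a correction for library composition. Of the filtered genes, 8163 averaged 20 CPM or more in each tissue and had an absolute log2 ratio of the tissue means from 0.1 to under 2, and these are called the eligible genes below. The spread of a gene was expressed as its coefficient of variation (CV, the SD of CPM over the mean, n = 4 libraries). In 6023 eligible genes (73.8%) the haustorial CV exceeded the shoot CV, and the 150 of these with the largest haustorial CV are the members. The members were thus chosen by the size of the haustorial spread, its excess over the shoot spread and the limits on tissue level and ratio, and these values are given as a description, without a test. Which pools were high or low, and how the shoot libraries were ordered, was not used. The identifiers are not paired with gene names in the sources used here, so the functions of the members and the identity of the tissues by marker genes were not examined. In pooled tissue, fewer cells of a type and less RNA per cell cannot be told apart.

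Library totals were 23465088 to 31246017 counts in the haustorial region and 22334600 to 34247925 in the shoot. The members were well covered, with at least 193 counts in every haustorial library and at least 433 in every shoot library. Counting error alone gives a CV of 0.00462 to 0.0450 for them in the haustorial region, far under the observed spread. Together they took up 2.09% ± 0.15 of the counts of haustorial libraries and 2.93% ± 0.01 of those of shoot libraries (SD, n = 4 each). Any 2 haustorial libraries had a chi-square per degree of freedom between 10.8 and 28.6, where 1 would be sampling noise, and any 2 shoot libraries one between 5.30 and 13.2. The largest of these values, 28.6, was that of haustorial replicates 2 and 4.

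The haustorial CV of the members had a median of 0.352 and ran from 0.292 to 0.791. Their shoot CV had a median of 0.101 and ran from 0.0168 to 0.421. Over all eligible genes the median CV was 0.0911 for haustorial libraries and 0.0578 for shoot libraries. At the limit of the list, the members ranked 148, 149 and 150 had haustorial CVs of 0.2930, 0.2929 and 0.2923, and the first 3 genes left out had 0.2919, 0.2911 and 0.2901, so the list has no natural edge there. The ratio of the highest to the lowest haustorial library was at least 2 in 124 members, at least 3 in 20 and at least 4 in 7, with a median of 2.25 and a maximum of 10.9. In the shoot, 6 members reached a ratio of 2, and the median was 1.25.

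**Figure D1:**
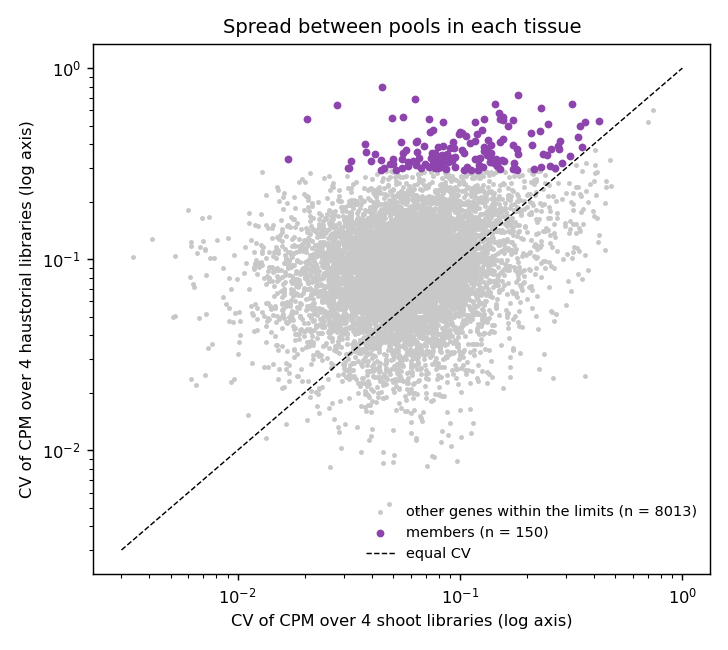
CV of CPM over the 4 haustorial libraries against CV over the 4 shoot libraries, both on log axes, for the 150 members (purple) and the other 8013 eligible genes (grey), 1 point per gene; the dashed line marks equal CV. The members form the upper band from 0.292 upward because the rule selected them there, while their shoot CVs extend over most of the range of the other genes.

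Although the rule set the shoot CV no limit other than to be below the haustorial one, members also varied more than most genes in the shoot. Of the 150, 125 (83.3%) had a shoot CV above the median of the eligible genes and 96 (64.0%) were above their upper quartile of 0.0817. The upper bound on the shoot CV removed few genes, since 157 eligible genes had a haustorial CV as large as that of the last member and 7 of them had a larger shoot CV. At the other end, 126 members had a haustorial CV at least 2 times their shoot CV and 39 at least 5 times. Genes are not replicates, so these shares carry no test.

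The 4 members identified here by name are those with the largest haustorial CV on either side of the shoot mean, 2 with a higher and 2 with a lower mean in the haustorial region. Cc037539, ranked 1, had 94.7, 276, 79.5 and 57.9 CPM in haustorial replicates 1 to 4, against 76.7, 73.5, 78.5 and 71.0 CPM in shoot replicates 1 to 4. Replicate 2 stood alone in the haustorial region, while the 4 shoot libraries lay close together and inside the haustorial range. It averaged 127 ± 101 CPM over haustorial and 74.9 ± 3.3 CPM over shoot libraries (SD, n = 4 each), a log2 ratio of 0.76 that was 0.05 without haustorial replicate 2. Cc033715, ranked 6, had 132, 345, 123 and 106 CPM in the haustorial replicates and 86.0, 87.9, 87.4 and 82.6 CPM in the shoot replicates. Here too replicate 2 was far above the other haustorial libraries, but all 4 lay above every shoot library. The log2 ratio of its means was 1.04 with all libraries and 0.49 without haustorial replicate 2, and its haustorial CV of 0.640 became 0.108 without that library.

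Cc009926, ranked 2, had 41.3, 85.1, 42.0 and 7.78 CPM in haustorial replicates 1 to 4, against 144, 190, 142 and 202 CPM in the shoot replicates. It was lower in every haustorial library than in any shoot library, and replicates 2 and 4 differed by a factor of 10.9, the widest range of all members. The log2 ratio of its means was -1.95, which became -2.48 without haustorial replicate 2 and -1.60 without replicate 4. Cc009052, ranked 3, had 448, 90.0, 167 and 534 CPM in the haustorial replicates and 615, 529, 567 and 583 CPM in the shoot replicates. Haustorial replicate 4 lay within the shoot range, replicate 1 somewhat below it, and replicates 2 and 3 far below it. It averaged 310 ± 214 CPM over haustorial and 573 ± 36 CPM over shoot libraries (SD, n = 4 each), a log2 ratio of -0.89 that was -0.58 without haustorial replicate 2 and -1.29 without replicate 4.

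**Figure D2:**
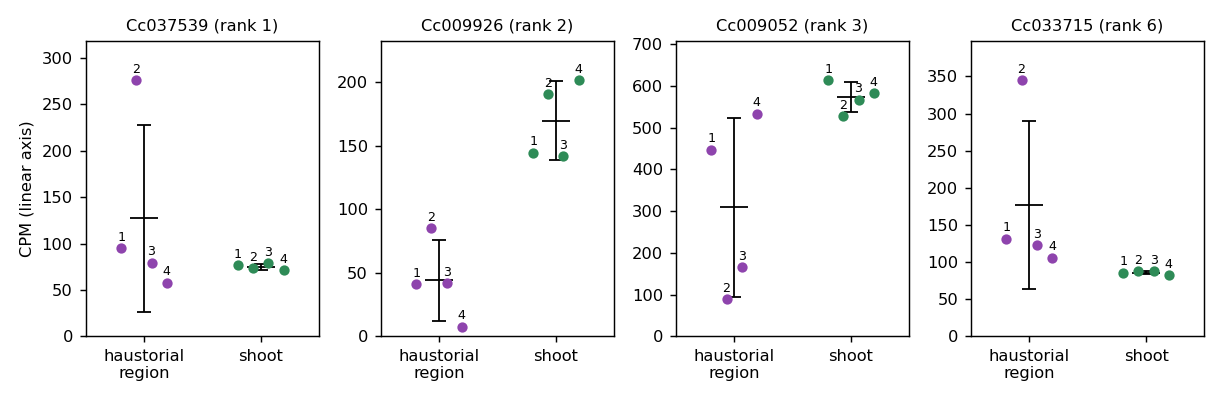
CPM (linear axis from 0) of the 4 identified members in each library, with haustorial libraries in purple on the left and shoot libraries in green on the right; numbers are replicate numbers, the horizontal bar is the mean and the whiskers are 1 SD (n = 4). Haustorial replicate 2 is the highest for Cc037539, Cc009926 and Cc033715 and the lowest for Cc009052, and replicate 4 is at the opposite end in each.

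The other members among the 10 highest ranks had the same axis, with 1 exception. The member ranked 5 had 83.1, 144, 70.6 and 19.0 CPM in haustorial replicates 1 to 4 and 137, 175, 132 and 170 CPM in the shoot replicates. As in Cc009926, replicate 2 was highest and replicate 4 lowest. The one ranked 9 had the opposite order, with 664, 180, 366 and 793 CPM in the haustorial replicates and 758, 676, 743 and 765 CPM in the shoot replicates, a profile much like that of Cc009052. The member ranked 4, at 92.7, 37.6, 91.9 and 202 CPM in haustorial replicates and 193, 249, 258 and 398 CPM in shoot replicates, and the member ranked 7, at 57.1, 10.6, 28.2 and 61.6 CPM in haustorial and 184, 171, 129 and 111 CPM in shoot replicates, also had replicate 4 highest and replicate 2 lowest. The member ranked 10, described with its neighbour below, shared this order. The exception was the member ranked 8, with 25.7, 57.1, 18.5 and 21.1 CPM in the haustorial replicates and 21.0, 22.4, 28.6 and 27.5 CPM in the shoot replicates, where replicate 2 was highest but replicate 3 lowest. Its log2 ratio changed sign without haustorial replicate 2, with 0.30 over all libraries and -0.19 without it.

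Across the whole list, replicates 2 and 4 were the extremes of the haustorial region. In 64 members (42.7%) replicate 4 was the highest and replicate 2 the lowest library, and in 46 (30.7%) replicate 2 was the highest and replicate 4 the lowest. These 110 members (73.3%) compare with 1968 of the 8163 eligible genes (24.1%), in which the other pairs of haustorial replicates held the ends in 531 to 1788 genes. Among members, each other pair held the ends in 3 to 16. The remaining 40 members were mixed, the largest sets being 13 with replicate 2 highest and replicate 3 lowest and 8 with replicate 4 highest and replicate 1 lowest. A list chosen for a large spread can favour the pools that differ most over all genes, and by the chi-square above these were replicates 2 and 4. How far this accounts for the share was not tested, so the share is a description of these libraries.

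**Figure D3:**
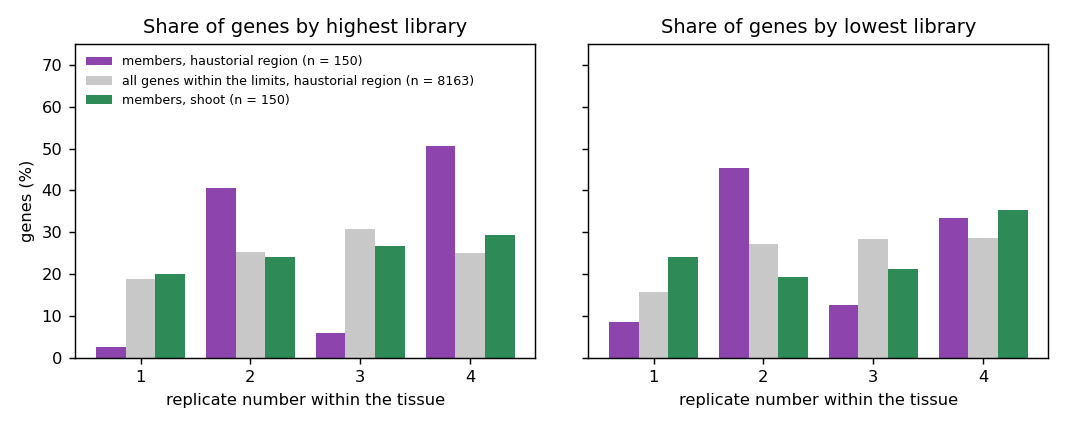
Share of genes (%) for which each replicate was the highest (left panel) or the lowest library (right panel), for the members in the haustorial region (purple), all eligible genes in the haustorial region (grey) and the members in the shoot (green). Haustorial replicates 2 and 4 were the highest library in 40.7% and 50.7% of members and the lowest in 45.3% and 33.3%. The 4 shoot replicates were the highest in 20% to 29.3% of members and the lowest in 19.3% to 35.3%.

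The members were also sorted by the largest gap between their 4 ordered haustorial values on the log2(CPM + 1) scale. The most frequent division set replicates 3 and 4 above replicates 1 and 2, in 38 members (25.3%) against 675 eligible genes (8.27%). Next came replicate 2 alone above the others, in 26 members (17.3%, against 6.81% of eligible genes). Replicate 2 alone below them followed, in 21 members (14%, against 9.96%). Replicate 4 stood alone below in 17 members (11.3%, against 11.9%) and alone above in 15 (10%, against 7.86%). The share with replicate 4 alone below was thus no larger among members than among eligible genes. Replicates 1 or 3 alone were seldom set apart in members. Replicate 1 stood alone above in 1 member. Replicate 3 stood alone below in 7 members (4.67%), against 1196 eligible genes (14.7%), their most frequent division. Replicate 3 alone above was also a common division of eligible genes (1075, 13.2%), and no member showed it on this scale. The single divisions depend on the scale. With the gap taken on linear CPM, replicate 2 stood alone above in 34 members and alone below in 6, replicate 4 alone above in 31 and alone below in 8, and replicate 3 alone above in 1. On the log2 scale the gap separated replicate 2 from replicate 4 in 141 members (94.0%) and in 4878 eligible genes (59.8%).

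A single component summarised most of this spread. On the log2(CPM + 1) values of the members in the 4 haustorial libraries, principal component 1 took up 74.9% of the variance, with scores of 7.84 for replicate 2, 1.00 for replicate 1, -1.62 for replicate 3 and -7.22 for replicate 4. Replicates 1 and 3 thus lay between the extremes, and component 2 (17.7%) separated these 2, at 3.33 and -3.94. The order on component 1 is not particular to the members. Over all eligible genes in the haustorial libraries it took up 53.5%, with scores of 14.3, 4.64, -7.31 and -11.6 for replicates 2, 1, 3 and 4. Component 1 of the list chosen for spread between shoot pools, taken over its own shoot libraries, also held 74.9%, so a share of this size is not particular to the haustorial list. For the haustorial list in the 4 shoot libraries component 1 took up 51.9%, with scores of -2.08, -0.97, 0.94 and 2.10 for replicates 1 to 4.

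**Figure D4:**
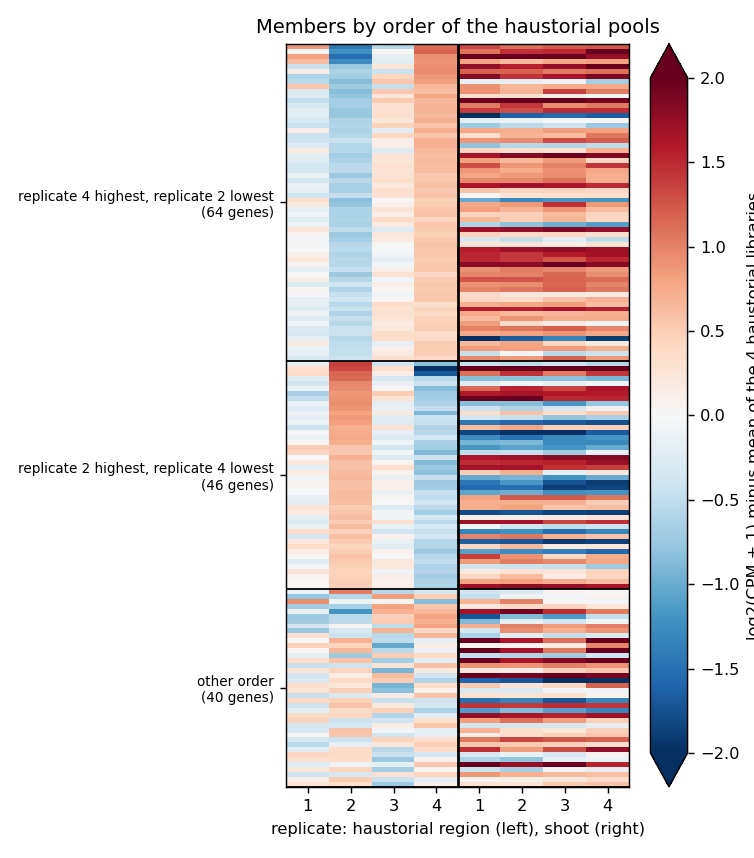
Heat map of log2(CPM + 1) minus the mean of the 4 haustorial libraries for the 150 members (rows, ordered by haustorial CV within each set), with haustorial replicates 1 to 4 left and shoot replicates 1 to 4 right of the line; colours saturate at 2 and -2. The upper 64 genes have replicate 4 high and replicate 2 low, the next 46 the reverse, and the last 40 another order, and the shoot CV of the same genes has a median of 0.101.

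The 64 members with replicate 4 highest and replicate 2 lowest were mostly lower in the haustorial region than in the shoot (54 of 64), with a median log2 ratio of means of -0.77. Their summed level was 8710, 5635, 9528 and 13718 CPM in haustorial replicates 1 to 4, against 13288, 13253, 14029 and 13467 CPM in the shoot replicates. That replicate 4 was highest and replicate 2 lowest in these values follows from the sorting. In sum, replicate 4 lay at the level of the shoot and replicate 2 well below it, with the shoot libraries close together. Gene by gene, the log2 difference from the shoot mean had a median of -0.94, -1.40, -0.67 and -0.29 in haustorial replicates 1 to 4. Replicate 2 was below all shoot libraries for 57 of these genes, replicate 4 for 35. The most abundant of them, ranked 86, had 940, 635, 1062 and 1470 CPM in haustorial replicates and 1342, 1367, 1528 and 1335 CPM in shoot replicates. Its replicate 4 was inside the shoot range and its other haustorial libraries were below it.

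The 46 members with replicate 2 highest and replicate 4 lowest were divided in their tissue direction, 24 with a lower and 22 with a higher mean in the haustorial region (median log2 ratio -0.20). Their summed level was 6404, 10371, 6461 and 4539 CPM in haustorial replicates 1 to 4 and 8642, 8306, 6870 and 7129 CPM in shoot replicates. Replicate 2 was above all shoot sums and the other haustorial libraries were below them. Here too the order of replicates 2 and 4 follows from the sorting. The median log2 difference from the shoot mean was -0.10, 0.37, -0.25 and -0.70 in haustorial replicates 1 to 4. The most abundant of these members, ranked 99, had 792, 1512, 1055 and 788 CPM in haustorial and 1982, 2077, 1631 and 1485 CPM in shoot replicates, so that replicate 2 alone reached the lower end of the shoot range. Of the 40 members with another order, 26 had a lower mean in the haustorial region. The most abundant of these 40, ranked 93, was also the member with the highest haustorial mean. It had 1587, 2343, 2535 and 1179 CPM in haustorial and 845, 995, 859 and 742 CPM in shoot replicates. Its order, with replicate 3 highest and replicate 4 lowest, was that of 3 of the 40.

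**Figure D5:**
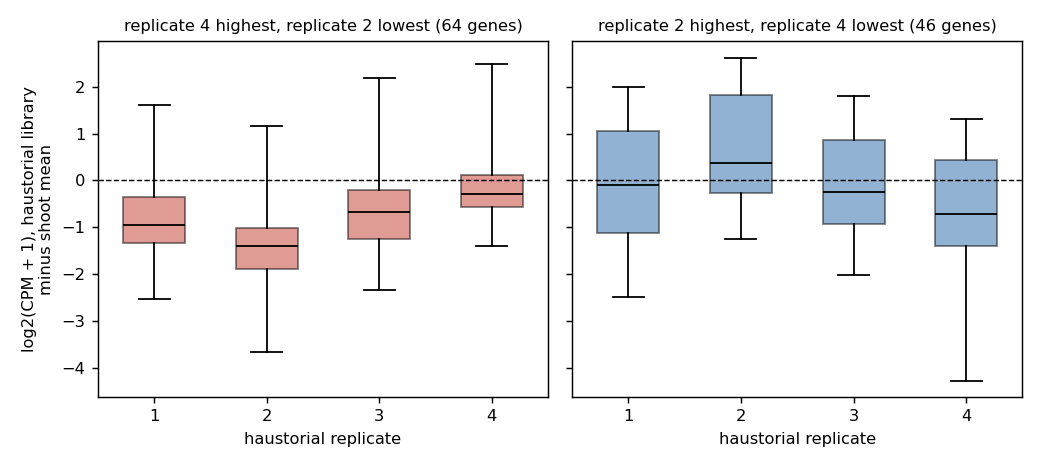
Log2(CPM + 1) of each haustorial library minus the shoot mean for the 64 members with replicate 4 highest and replicate 2 lowest (left) and the 46 with the reverse order (right); boxes show quartiles and median, whiskers the full range, and the dashed line the shoot mean. The medians run from -1.40 in replicate 2 to -0.29 in replicate 4 on the left and from 0.37 in replicate 2 to -0.70 in replicate 4 on the right. The order of replicates 2 and 4 in each panel follows from how the genes were sorted.

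Seen from the shoot, the tissue difference of many members differed from pool to pool, which a rule for a large haustorial spread brings with it. The counts that follow largely restate the order of the pools given above, and have no reference among the eligible genes. Of the 104 members with a lower mean in the haustorial region, the library nearest to the shoot mean was replicate 4 for 59, replicate 2 for 28, replicate 3 for 10 and replicate 1 for 7. Of the 46 with a higher mean, the nearest was replicate 4 for 23, replicate 2 for 13, replicate 3 for 6 and replicate 1 for 4. The farthest library was replicate 2 for 57 of the 104 and for 26 of the 46. In 23 members at least 1 haustorial library lay above all shoot libraries and another below all of them, and Cc037539 was one of these. Leaving out 1 haustorial library turned the sign of the log2 ratio in 6 members, 4 of them without replicate 2.

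The comparison of tissues over all genes was computed only for reference, because the rule used the same means. Of the 150 members, 93 (62.0%) were called by edgeR's quasi-likelihood test at a Benjamini-Hochberg adjusted p under 0.05, against 65.2% of the 32855 genes tested. Higher in the haustorial region were 25 members (16.7%, against 31.2% of all genes tested) and lower were 68 (45.3%, against 34%). All haustorial values lay on one side of all shoot values in 82 members (54.7%), against 60.4% of all genes tested. Among the 8163 eligible genes the shares were higher, with 77.9% called and 72.1% without overlap. Without haustorial replicate 4, 106 members (70.7%) were called, against 64.3% of all genes tested, and without replicate 2, 102 members (68.0%), against 63.8%. With all libraries kept, the side also depended on the fit. The members' share was above that of all genes with DESeq2 (70.7% against 65.4%) and a replicate block (68.0% against 62.9%). It was also above with library totals (67.3% against 66.2%) and no filter (57.3% against 55.2%), and below with RLE scaling (62.0% against 65.3%). Nothing is read from these shares, since the rule used the spread that the test divides by.

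Other properties of the libraries were set beside the members. Outside the list, 77 genes averaged 20 CPM or more in haustorial libraries at 32 times their shoot level or above, and 168 genes met the same criterion in the shoot. The 77 haustorial genes summed to 10868, 13202, 12239 and 9030 CPM in haustorial replicates 1 to 4 and averaged 68.1 ± 9.0 CPM in shoot libraries (SD, n = 4). By this sum replicate 2 was the highest and replicate 4 the lowest of the haustorial libraries. Of the 77 genes, 28 were highest in replicate 2, 26 in replicate 3, 13 in replicate 1 and 10 in replicate 4. Replicate 4 was the lowest for 44 and replicate 2 for 16. The 168 shoot genes summed to 160, 236, 256 and 196 CPM in haustorial replicates 1 to 4, against 16364 to 18150 CPM in shoot libraries. By this sum replicate 3 was the highest haustorial library, at 1.46% of their mean shoot level. Gene by gene the order differed. Replicate 2 was the highest haustorial library for 64 of the 168 genes, replicate 4 for 38, replicate 1 for 35 and replicate 3 for 31. The share of counts in a library's 100 most abundant genes was 17.5%, 19.0%, 19.6% and 16.8% in haustorial replicates 1 to 4, and 9.65% to 10.9% in shoot libraries. The part of these properties in the spread of the members was not tested.

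Shoot libraries with the numbers 2 and 4 did not follow the haustorial ones. They were at opposite ends in 35 members (23.3%), close to their 21.3% of eligible genes, and were in the same order as the haustorial libraries of those numbers in 74 of 150. The member with the largest shoot CV (0.421), ranked 18, had 34.9, 93.0, 60.0 and 30.5 CPM in haustorial and 331, 226, 143 and 144 CPM in shoot replicates. In the shoot its replicates 1 and 2 were high, whereas in the haustorial region only replicates 2 and 3 were. A different extreme was the member ranked 15, with 38.5, 111, 85.8 and 36.7 CPM in haustorial replicates and 185, 192, 186 and 184 CPM in shoot replicates. Its haustorial CV of 0.538 stood against a shoot CV of 0.0204, the largest ratio of the 2 measures in the list. The member ranked 92 had the steadiest level in the shoot, at 175, 171, 178 and 174 CPM, with 47.9, 95.0, 73.0 and 49.8 CPM in the haustorial replicates.

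For comparison, the same rule with the tissues exchanged gave the 150 genes that varied most between shoot pools. Their shoot CV had a median of 0.263 and ran from 0.195 to 0.735, beside 0.292 to 0.791 for the haustorial CV of the haustorial list. Shoot replicates 1 and 2 were the highest library for 66 and 65 of these genes, and replicates 3 and 4 the lowest for 87 and 45. In the haustorial region replicate 2 was the highest library for 63 of them (42.0%, against 25.2% of eligible genes). Replicate 4 was the lowest for 63 (42.0%, against 28.7%). The reverse was less frequent than among eligible genes. Replicate 2 was the lowest for 28 (18.7%, against 27.3%) and replicate 4 the highest for 21 (14%, against 25.1%). In the haustorial region 120 of these 150 genes (80.0%) had a CV above the median of the eligible genes, beside the 83.3% found for the haustorial list in the shoot.

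Members with consecutive identifiers were counted, without a reference rate for other sets of genes. Of the 150, 4 pairs had identifiers that differed by 1, and in 2 of these pairs both genes had the same largest-gap division. In the first of those pairs, the member ranked 10 had 13.9, 11.2, 23.4 and 37.7 CPM in haustorial and 68.4, 59.0, 67.3 and 84.9 CPM in shoot replicates. Its neighbour, ranked 13, had 23.6, 22.5, 49.8 and 68.4 CPM in haustorial and 133, 102, 118 and 136 CPM in shoot replicates. Both had replicates 3 and 4 above replicates 1 and 2 and all haustorial libraries below all shoot libraries. Adjacent genes of like sequence can share reads, and how the counting treated them is not given in the sources used here. The 60 eligible non-member neighbours of members had a median haustorial CV of 0.0870, against 0.0911 for all eligible genes. Neighbours that are members themselves, all of high haustorial CV by the rule, are not in the first of these medians.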

How the data were processed

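The authors deposited 1 table of unscaled read counts per library. The submitters' processing notes name STAR 2.5.2b. The counter, strand setting, genome build, annotation and filters were not given in the sources used here. None (0) of the 45825 identifiers matched a table of 45474 genes of a C. campestris assembly. Libraries were grouped by their titles. In R 4.3.3, genes were kept by filterByExpr of edgeR 4.0.16 (default settings, roughly 10 counts in 4 libraries and a total of 15), and CPM were computed with TMM factors. Tissues were compared over all genes with edgeR's robust quasi-likelihood F test, tissue being the only term. The script was tested on simulated data. DESeq2 1.42.0, RLE and library-total scaling, no filter, a replicate block, other limits and left-out libraries were alternatives. Counts and largest gaps are descriptions. The members, limits and sets were chosen with earlier results of these data known, and the sorting by replicates 2 and 4 after the values were seen. Identifiers printed were the 2 with the largest haustorial CV in each direction; other members go by rank.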

Additional observations from a re-analysis of the deposited data

Results flagged for a closer look

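In 2 of the members whose values are given, 1 haustorial library stood apart from the other 3. The gap of the extreme library to its nearest neighbour, over the whole range of the 4, was 0.832 for Cc037539 (rank 1) and 0.893 for Cc033715 (rank 6), above Dixon's critical value (95%) for 4 samples, and in both it was haustorial replicate 2. Chance sets apart about 1 in 20 groups that were not selected, but these genes were chosen for a large haustorial spread, which favours a lone extreme library, so the limit is no test here. Over the list, 9 of 150 members (6.00%) passed this limit among haustorial libraries and 9 among shoot libraries, against 5.32% and 4.45% of the eligible genes.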

How the results depend on the processing

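Leaving out each library and applying the rule again returned 79 to 145 of the 150 members, with 79 without haustorial replicate 2 and 91 without replicate 4. A mean of at least 10 CPM returned 97, since more genes then compete, and one of at least 50 CPM returned 79, since 71 members have a mean under 50 CPM in at least 1 tissue. RLE scaling returned 144, library totals 125, no filter 149, the SD of log2 CPM 135, range over mean 131, and no limit on the tissue ratio 121. The count of 141 members whose largest gap separates replicates 2 and 4 was 131 to 141 under other scalings or definitions (140 on linear CPM) and 141 to 148 with a library left out; it has no value without replicate 2 or 4. The number of members with these 2 at the ends was 107 to 110 under the other scalings. Called members (93) numbered 86 to 106 over the other fits (55.2% to 66.2% of all genes tested), 106 being the DESeq2 count, and 82 to 106 with a library left out (60.5% to 64.3% of all genes). With the replicate block 102 were called, but same-numbered libraries showed no shared deviation over all genes (correlations across genes of -0.06 to 0.04). No library of 8 matched its own number best. Over the members the correlations were 0.19, 0.06, 0.19 and 0.04 for replicates 1 to 4. No pairing is known. Library totals alone moved the median log2 ratio of all tested genes by -0.18. They left 105 members lower in the haustorial region, against 104. The haustorial CV stayed above the shoot CV in 138 to 149 members with a library left out. With 4 libraries a tissue, a CV of a single gene is imprecise; depth was not limiting for these genes.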

Other observations

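Genes kept out of the list by the limits on tissue level or ratio also varied between haustorial pools. Of 194 genes that averaged 20 CPM or more in each of the tissues but had a tissue ratio of 4-fold or more, 24 had a haustorial CV as large as that of the last member and above their shoot CV. Of these 24, 8 had replicate 2 highest and replicate 4 lowest, and 5 had the reverse order. Of 1966 genes with at least 20 CPM in the haustorial region and less in the shoot, 59 reached that spread, 25 with replicate 2 highest and replicate 4 lowest and 12 with the reverse. Of 1732 genes with nearly equal tissue means (absolute log2 ratio under 0.1), 9 did, 1 with replicate 2 highest and 4 with replicate 4 highest. None of these differences between sets of genes was tested.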
